A study of Mus musculus with 6 samples.

Results

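The genes described here belong to the Sonic hedgehog pathway and to the precursors of cerebellar granule neurons, and were read in whole brain of male mouse pups on postnatal day 6 that carried a human SRY transgene. The list held 10 genes, Gli1, Gli2, Ptch1, Smo, Mycn, Atoh1, Hhip, Barhl1, Zic1 and Shh, and its members were all probes that the array table names with one of these symbols. These were 12 probes of 9 genes, among 25697 probes of 18138 gene symbols in the table, and Gli2 was not analysed here. SRY is the Y-linked gene that starts testis formation, and the comparison addressed how brain transcripts differ when the human gene is active from the earliest embryonic stage. Brain RNA of 3 pups in each group was hybridised to an Illumina MouseRef-8 v2.0 bead array, 1 array per pup. The array's only SRY probe is named for the mouse gene and was detected on no array, so the group labels could not be checked on the transgene.

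All pups were of the FVB strain and carried 1 single-copy insertion of the Signalox-hSRY transgene at the H11 locus, so the comparison rests on a single transgene line. In the hSRY-OFF group the transgene was unrecombined, and its CAG promoter, which is active in most tissues, drove the red fluorescent protein DsRed2. In the hSRY-ON group Cre from the oocyte of a Ddx4-Cre mother had recombined the transgene in the single-cell embryo, so that CAG drove FLAG-tagged hSRY together with EGFP. The hSRY-ON pups had not inherited Ddx4-Cre itself. The groups therefore differed in the fluorescent protein and in recombination as well as in hSRY, and these differences cannot be told apart. The paper also reports that hSRY-ON pups suckled little and had smaller brains. By this age they were growth retarded and some had died. Litters of the arrayed pups are not named in the paper, and the part of litter or of poor growth in the values was not tested.

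As background, Sonic hedgehog is secreted in the postnatal cerebellum by Purkinje cells and makes the granule precursors of the external granular layer divide. Without ligand the receptor Ptch1 holds the membrane protein Smo inactive, and ligand binding releases Smo, which activates the Gli transcription factors. Gli1, Ptch1 and Hhip are direct targets used as readouts of the pathway, Mycn is the target that carries the proliferative response, and Atoh1, Barhl1 and Zic1 are transcription factors of the granule lineage.

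On these arrays the pathway was only partly visible, and no probe of the listed genes passed the test of hSRY-ON against hSRY-OFF brains. Smo, Shh, Barhl1 and Zic1 gave signal above background on every array from at least 1 probe, whereas Gli1, Hhip, Mycn and Atoh1 did so on none. Ptch1 lay at the edge of detection. The direct readouts of hedgehog signalling were thus undetected or near the detection limit in both groups.

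A probe was called detected on an array where its deposited detection p-value, which ranks its signal among the negative control beads, was below 0.05. The lowest signal of any detected probe was between 184 and 203 units on the 6 arrays, and each array detected 13816 to 14377 probes. Of the 12 listed probes, 6 were detected on all arrays, 2 on some and 4 on none. Over all probes of the array, 49.5% were detected on all arrays and 38.1% on none. With a detection p-value under 0.01 the listed probes detected on no array numbered 5, since the second Shh probe joined them.

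**Figure D1:**
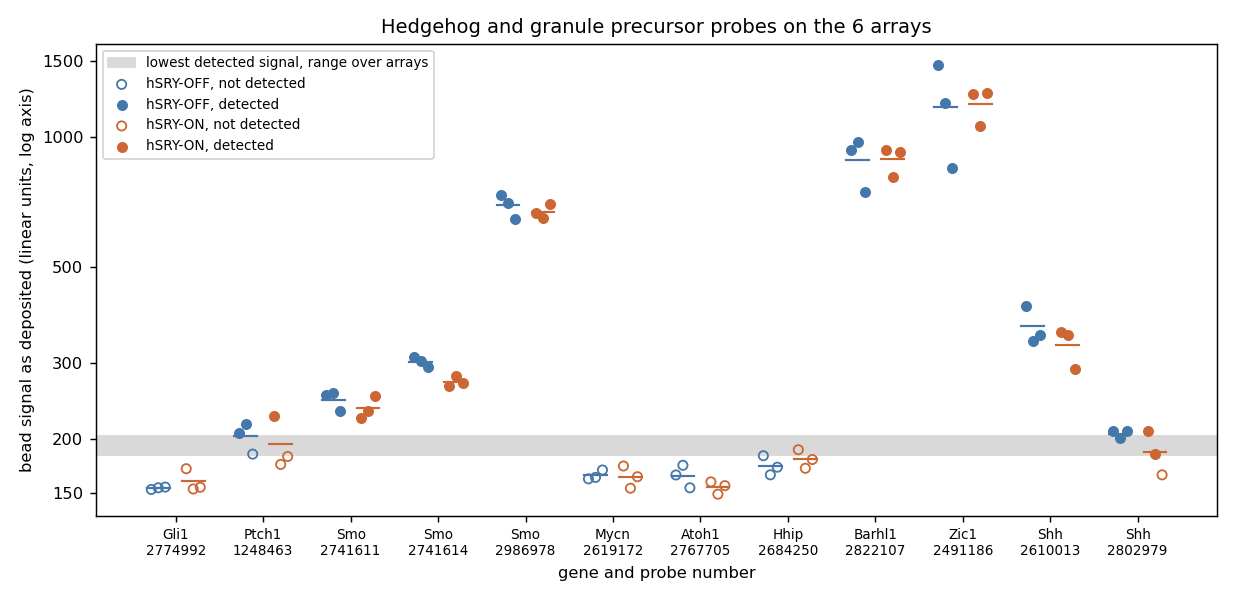
Bead signal as deposited, on a log axis, for the 12 probes of the listed genes on 3 hSRY-OFF arrays (blue) and 3 hSRY-ON arrays (orange), with filled points where the probe was detected, open points where it was not, and short bars for group means. The grey band spans the lowest detected signal of the arrays, 184 to 203 units; Gli1, Mycn, Atoh1 and Hhip have only open points, and heights of different probes are not comparable because probes bind with different strength.

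Hybridisation strength differs between probes, so signals were compared between arrays within a probe and never between genes. Probes detected on at least 3 of the 6 arrays, 14215 in all, were tested with limma after background correction and quantile normalization, and a probe was called where its p-value adjusted over all tested probes was below 0.05. Of the 12 listed probes, 8 probes of 5 genes passed this filter. None of the 8 was called, while 308 of all tested probes were, or 2.17%. That total was 0 or 1 without any 1 array other than hSRY-ON 3, and 417 without hSRY-ON 3. Of all tested probes 0.844% were called higher and 1.32% lower in hSRY-ON brains. No listed probe had an unadjusted p below 0.05, against 20.9% of all tested probes, and no listed probe had normalized values that separated the groups, against 27.7%. With 8 probes of 5 genes these counts describe the listed genes and do not set them apart from the rest of the array.

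Shh, the ligand, had 2 probes. The first, ILMN_2610013, had normalized log2 signals, in the order of the replicate numbers 1 to 3, of 7.79, 7.58 and 7.70 in hSRY-OFF and 7.63, 7.72 and 7.20 in hSRY-ON brains. The groups overlapped, and the lowest value was that of hSRY-ON array 3. The difference, hSRY-ON minus hSRY-OFF, was -0.18 (SE 0.15) with a 95% interval from -0.52 to 0.17, and the limma adjusted p was 0.533. Without hSRY-ON array 3 the difference was -0.02 (limma adjusted p = 0.925). In linear units this interval runs from 0.696-fold to 1.12-fold.

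The second Shh probe, ILMN_2802979, was dim. Its deposited signals were 208, 200.5 and 208 units on the hSRY-OFF arrays and 209, 185 and 165 units on the hSRY-ON arrays, and it was detected on 5 of the 6. The array that did not detect it was hSRY-ON array 3, the same array that was lowest with the first probe. After normalization its values were 5.57, 5.69 and 5.94 against 5.80, 5.40 and 4.75 on the log2 scale, which overlapped. The difference of -0.42 (SE 0.25) had an interval from -1.02 to 0.18 and a limma adjusted p of 0.396. It was -0.13 without hSRY-ON array 3 (limma adjusted p = 0.674) and -0.66 without hSRY-ON array 1 (limma adjusted p = 0.227). Without background correction it was -0.12, and with an offset of 50 it was -0.23. Over the 6 arrays the 2 Shh probes correlated with Pearson r = 0.79, given as a description of probes that share the same 6 hybridisations.

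Ptch1, the hedgehog receptor and itself a target, had deposited signals of 206, 217 and 184 units in hSRY-OFF and 226, 174 and 182 units in hSRY-ON brains. It was detected on hSRY-OFF arrays 1 and 2 and on hSRY-ON array 1, so each group held arrays that detected it and arrays that did not. The highest and the lowest signal both came from hSRY-ON arrays. Normalized log2 signals were 5.52, 6.09 and 5.28 against 6.20, 5.10 and 5.16. The difference was -0.14 (SE 0.33), and its interval from -0.92 to 0.64 corresponds to 0.528-fold to 1.55-fold, the widest log2 interval of the 8 tested probes (limma adjusted p = 0.847). With 1 array left out it was tested in 3 of 6 fits, and its sign turned in 2 of them, to 0.05 without hSRY-ON array 2 and to 0.02 without hSRY-ON array 3.

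Smo, the membrane protein that passes the signal on, was measured by 3 probes, all detected on every array. The probe ILMN_2986978 gave 8.99, 9.13 and 9.02 in hSRY-OFF and 8.98, 9.04 and 9.17 in hSRY-ON brains on the normalized log2 scale. Both groups covered nearly the same range, and the difference was 0.01 (SE 0.088) with an interval from -0.19 to 0.22 (limma adjusted p = 0.950). This was the narrowest interval among the listed probes, from 0.874-fold to 1.17-fold.

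The Smo probe ILMN_2741611 gave 6.41, 6.74 and 6.44 against 6.15, 6.49 and 6.72. The lowest and the second highest of these values were hSRY-ON arrays, and the difference of -0.08 (SE 0.16, 95% interval -0.46 to 0.31) had a limma adjusted p of 0.830. Its sign turned to 0.03 without hSRY-OFF array 2 and to 0.07 without hSRY-ON array 1. For the probe ILMN_2741614 the deposited signals were 309, 303 and 293 units in hSRY-OFF and 265, 279 and 270 units in hSRY-ON brains, so that every hSRY-ON array was below every hSRY-OFF array before normalization. After normalization the values were 7.08, 7.28 and 7.23 against 6.80, 7.12 and 6.95, and hSRY-ON array 2 lay above hSRY-OFF array 1. The difference was -0.24 (SE 0.11, interval -0.50 to 0.02), with an adjusted p of 0.262 that was the lowest of the listed probes and an unadjusted limma p of 0.0620. It was -0.16 without hSRY-ON array 1 (limma adjusted p = 0.496) and -0.11 without background correction (limma adjusted p = 0.339).

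The Smo probes thus did not give one pattern. Over the 6 arrays ILMN_2741611 and ILMN_2986978 correlated with r = 0.92, whereas ILMN_2741614 correlated with them at r = 0.55 and r = 0.24. All 3 correlations are descriptions over the same 6 arrays. Which stretch of the Smo transcript each probe reads was not analysed here.

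**Figure D2:**
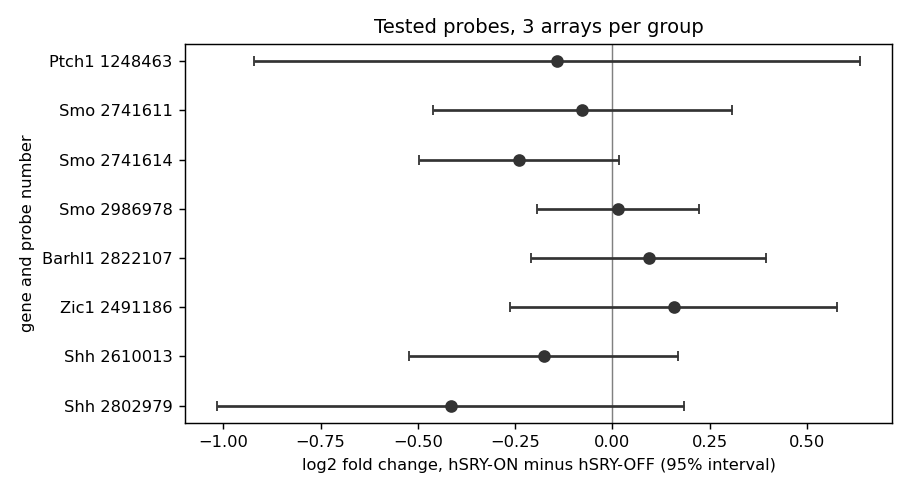
Log2 fold change, hSRY-ON minus hSRY-OFF, of the 8 tested probes of Ptch1, Smo, Barhl1, Zic1 and Shh; points are limma estimates from 3 arrays per group and bars their 95% intervals. All 8 intervals include 0, and those of Ptch1 and of the second Shh probe, which lie near background, are the widest.

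Hhip, the decoy receptor that binds hedgehog ligands at the cell surface, was detected on no array. Its signals were 183, 165 and 172 units in hSRY-OFF and 189, 171 and 179 units in hSRY-ON brains, with detection p-values from 0.105 to 0.435. These signals stayed below each array's own detection limit, so no fold change was taken from them.

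Gli1, the transcription factor whose transcription is itself driven by the pathway, gave 153, 154 and 155 units in hSRY-OFF and 170, 153 and 154 units in hSRY-ON brains. The single higher signal was that of hSRY-ON array 1, with a detection p of 0.352, and it too lay below the detection limit of that array, 197 units. Mycn, which drives the division of granule precursors, gave 161, 163 and 169 units against 173, 154 and 163 units, with detection p-values from 0.287 to 0.811. Gli1 and Mycn were thus not detected above background in either group, and no fold change was taken from either.

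Atoh1, the transcription factor that defines granule precursors and keeps them dividing, gave 165, 174 and 154 units in hSRY-OFF and 159, 149 and 156 units in hSRY-ON brains. It was detected on none of the 6 arrays, with detection p-values from 0.218 to 0.811. The defining marker of the precursor cells thus gave no signal detected above background in whole brain RNA, and the granule lineage was seen here through markers that other cells also express. Zic1, for example, is also made in meninges and forebrain.

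Barhl1, a homeobox factor of granule precursors and neurons, had normalized log2 signals of 9.42, 9.71 and 9.29 in hSRY-OFF and 9.59, 9.43 and 9.67 in hSRY-ON brains. The lowest array was hSRY-OFF 3 and the highest hSRY-OFF 2, so the hSRY-ON values lay inside the hSRY-OFF range. The difference was 0.09 (SE 0.13) with an interval from -0.21 to 0.40 (0.866-fold to 1.32-fold) and a limma adjusted p of 0.722. In bulk RNA, fewer cells of a type and less RNA per cell cannot be told apart.

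Zic1, a zinc finger factor of granule precursors, had normalized log2 signals of 10.17, 10.05 and 9.51 in hSRY-OFF and 10.08, 9.92 and 10.20 in hSRY-ON brains. The groups overlapped, and hSRY-OFF array 3 was the lowest of all 6. The difference of 0.16 (SE 0.18, interval -0.26 to 0.58) had a limma adjusted p of 0.662. Without hSRY-OFF array 3 the difference became -0.04 for Zic1 (limma adjusted p = 0.887) and 0.00079 for Barhl1 (limma adjusted p = 0.998). Without hSRY-OFF array 2 the difference of Barhl1 was 0.21 (limma adjusted p = 0.425). Barhl1 and Zic1 correlated over the 6 arrays with r = 0.71, again as a description.

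The low signal of hSRY-OFF array 3 extended to the other granule precursor markers. The list of 15 markers had 14 in the table and 7 tested, and hSRY-OFF array 3 was the lowest hSRY-OFF array in 6 of the 7. The mean normalized log2 signal over the 7 was 9.60, 9.62 and 9.31 in hSRY-OFF and 9.46, 9.41 and 9.45 in hSRY-ON brains. Array 3 was also the lowest hSRY-OFF array in 5 of 6 tested Purkinje cell markers, in 4 of 7 hindbrain and midbrain patterning genes and in 7 of 8 proliferation genes. It was the lowest in 3 of 7 glial, 2 of 7 forebrain and 1 of 6 meningeal genes, and the highest in 4 of those 6 meningeal genes. Among granule neuron genes it was the lowest in 3 of 5 migrating and 3 of 6 mature markers. Over the mature markers the hSRY-OFF means were 8.95, 8.98 and 9.06, so array 3 was the highest there. En2, a patterning factor of midbrain and cerebellum, gave 9.20, 9.34 and 8.45 in hSRY-OFF and 8.58, 8.55 and 8.61 in hSRY-ON brains. The part of dissection or of tissue makeup in these values was not tested.

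**Figure D3:**
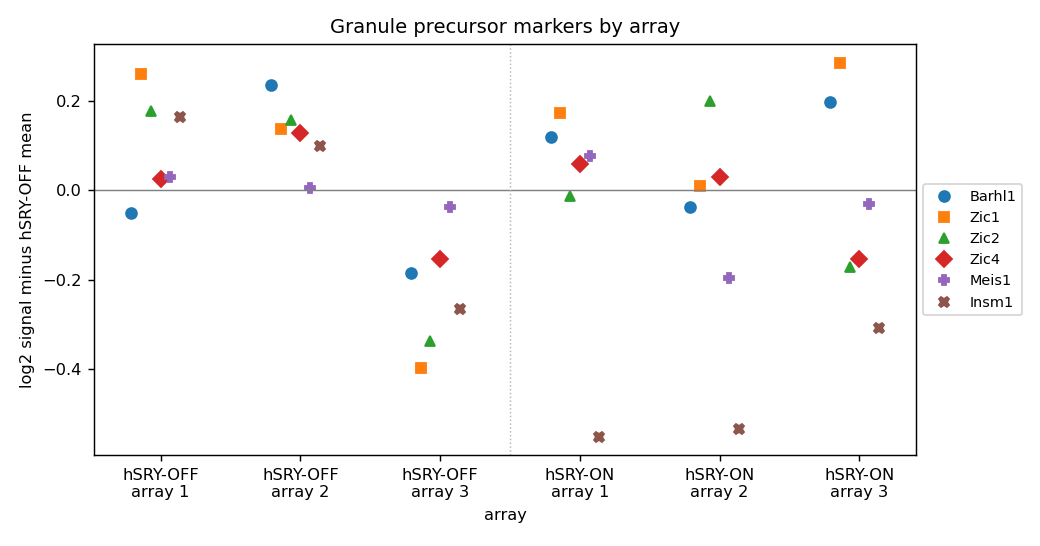
Normalized log2 signal of 6 granule precursor markers on each array, as the difference from that gene's mean over the hSRY-OFF arrays; each symbol is 1 gene, spread sideways only for legibility. On hSRY-OFF array 3 all 6 markers lie below 0, and the hSRY-ON values of Insm1 all lie below its hSRY-OFF values.

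None of the 7 tested granule precursor markers was called, against 2.39% of all tested gene symbols, and their median difference was -0.02, beside a median of 0.00041 over the 10548 symbols with 1 probe each. Insm1, a zinc finger factor of dividing neural progenitors, had 10.73, 10.66 and 10.30 in hSRY-OFF against 10.01, 10.03 and 10.26 in hSRY-ON brains. Its groups did not overlap, with hSRY-ON array 3 just under hSRY-OFF array 3, and its difference was -0.46 (SE 0.14, limma adjusted p = 0.120). Atoh1, Zic5, Pax6, Nhlh1, Nhlh2, Mab21l1 and Btg2 were in the table but detected on too few arrays to be tested.

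Other genes of the hedgehog pathway, which act on ligand release, in the primary cilium or on Gli processing, were mostly measurable. Of 28 such genes 27 were in the table and 18 were tested. None was called, beside 2.39% of all tested symbols, and with 18 genes a count of 0 is near that share. In hSRY-ON brains 10 were higher and 8 lower, and the median difference was 0.02. Tulp3, which traffics receptors into the cilium, had 5.63, 5.55 and 5.79 in hSRY-OFF and 6.46, 6.29 and 5.88 in hSRY-ON brains. All 3 hSRY-ON arrays were above the hSRY-OFF arrays, and the difference of 0.55 (SE 0.16) had a limma adjusted p of 0.112. Btrc, part of the ubiquitin ligase that processes Gli proteins, had a difference of -0.25 (SE 0.08, limma adjusted p = 0.143) with its brightest probe and of 0.34 (limma adjusted p = 0.319) with its second, so its probes did not share a direction. Sufu, which holds Gli proteins in the cytoplasm, had a difference of 0.02 (SE 0.17, limma adjusted p = 0.954). Gli3, the main repressor form of the Gli family, was in the table but detected on too few arrays to be tested. Tulp3, Sufu and the second Btrc probe were dim, with mean normalized log2 signals of 5.94, 5.48 and 6.02. Tulp3 and Btrc are also expressed outside the cerebellum.

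Growth genes that respond to hedgehog in granule precursors gave no call, beside 2.39% of all tested symbols. With 8 tested genes a count of 0 is near that share. Of 12 such genes 10 were in the table and 8 tested. Differences were negative in 6 and positive in 2, with a median of -0.19. In 4 of the 8 the unadjusted limma p was under 0.05, all lower in hSRY-ON brains, beside 2265 of all 10548 symbols. The groups did not overlap in 4 of the 8, beside 3058 of all symbols. Ccnd2, a D-type cyclin of the G1 phase, had 9.75, 9.36 and 9.23 in hSRY-OFF and 8.77, 8.86 and 8.87 in hSRY-ON brains. Its groups did not overlap, and the difference was -0.61 (SE 0.14, limma adjusted p = 0.0698). Ccnd1, the D-type cyclin that hedgehog induces in these cells, had a difference of -0.50 (SE 0.12, limma adjusted p = 0.0801), and its 3 probes were all lower in hSRY-ON brains. These cyclins are expressed in many dividing cells of the brain.

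General proliferation genes included calls. Of 8 tested, 4 were called, all lower in hSRY-ON brains, beside 2.39% of all tested symbols called in either direction, and the median difference was -0.77. These were Top2a, which untangles chromosomes in division, Birc5, a mitotic survival factor, Ccnb1, the mitotic cyclin, and Cdc2a, its kinase, with differences between -1.08 and -0.78 and limma adjusted p-values from 0.0327 to 0.0484. Top2a had 9.63, 9.73 and 9.41 in hSRY-OFF and 8.24, 8.44 and 8.83 in hSRY-ON brains. Each of these 4 calls, and those of Mapt, Gabrd (both probes), Pcp2, Aqp4, Gfap and Aqp1 given next, was lost when any array other than hSRY-ON 3 was left out. The difference of Top2a was then between -1.17 and -0.95. Since Atoh1 and Gli1 were not detected, the granule precursors' own part in these lower levels was not tested.

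Later stages of the granule lineage were read by markers of migrating and of mature granule neurons. Of the 5 tested genes of migrating granule neurons none was called, with a median difference of 0.07 (2.39% of all tested symbols were called). Sema6a, a guidance protein of migrating granule cells, had -0.31 (limma adjusted p = 0.271) and Dcx, a microtubule protein of migrating neurons, 0.14 (limma adjusted p = 0.336). Mapt, the microtubule protein tau, had probes that disagreed. The brightest, which stands for it in the list, had 0.16 (limma adjusted p = 0.341), another 0.28 (limma adjusted p = 0.593), and ILMN_1257750 was called lower at -0.85 (limma adjusted p = 0.0348). Of the 6 tested genes of mature granule neurons 1 was called, beside the same 2.39%, namely Gabrd, the delta subunit of the GABA-A receptor. It had 8.24, 8.38 and 8.24 in hSRY-OFF and 7.79, 7.56 and 7.75 in hSRY-ON brains, and it fell by 0.59 (SE 0.09, limma adjusted p = 0.0348) and with its second probe by 0.77 (limma adjusted p = 0.0263). Neurod2, a neuronal differentiation factor, had 0.35 (limma adjusted p = 0.153), and the granule neuron genes Gabra6 and Cbln3 were not tested.

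Purkinje cells are the source of Shh in the cerebellum. Of their 6 tested markers 1 was called, beside 2.39% of all tested symbols. This was Pcp2, a protein of Purkinje cell signalling, with 10.60, 10.82 and 10.54 in hSRY-OFF and 9.68, 9.58 and 9.80 in hSRY-ON brains. Pcp2 fell by 0.97 (SE 0.11, limma adjusted p = 0.0243). The median over the 6 was -0.05, and it was -0.24 without hSRY-OFF array 3 and 0.06 without hSRY-OFF array 2. Itpr1, the calcium release channel of these cells, had -0.28 (SE 0.08, limma adjusted p = 0.114). The probes of Shh and of these markers were not compared in level.

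Markers of glia and of non-neural tissue gave calls in both directions, again beside 2.39% of all tested symbols. In Bergmann glia and astrocytes 2 of 7 tested markers were called, the water channel Aqp4 (-0.81, limma adjusted p = 0.0275) and the filament protein Gfap (-0.83, limma adjusted p = 0.0308), both lower in hSRY-ON brains. In choroid plexus 1 of 7 was called, the water channel Aqp1 (0.67, limma adjusted p = 0.0348), and all 7 had positive differences. Kl, a membrane protein of this epithelium, had 0.92 (limma adjusted p = 0.0910). Its probe was dim, with a mean normalized log2 signal of 5.77. Meningeal genes gave no call among 6 tested, 3 higher and 3 lower with a median of -0.06. The matrix genes Lum and Col1a1 had the lowest p, at -1.09 (limma adjusted p = 0.0682) and -0.69 (limma adjusted p = 0.102). Aldh1a2, which makes retinoic acid, had 0.29 (limma adjusted p = 0.158), and the transporter Slc6a13 had 0.25 (limma adjusted p = 0.171).

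Regional genes were read as a check of which brain regions the samples held. Of all tested symbols 2.39% were called, and in a list of 7 tested genes a count of 0 is near that share. Hindbrain and midbrain patterning genes gave no call among 7 tested and a median of 0.19, with Gbx2, a factor of the midbrain-hindbrain boundary region, at 0.53 (limma adjusted p = 0.0950) and En2 at -0.42 (limma adjusted p = 0.324). Forebrain genes gave no call among 7 and a median of 0.34, which dropping hSRY-ON array 3 brought to 0.17 and dropping hSRY-OFF array 2 to 0.21, with Lhx2 at 0.43 (limma adjusted p = 0.0968) and Dlx2, a factor of inhibitory neuron precursors, at 0.42 (limma adjusted p = 0.209). The part of regional makeup in the values of Barhl1 and Zic1 was not tested.

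**Figure D4:**
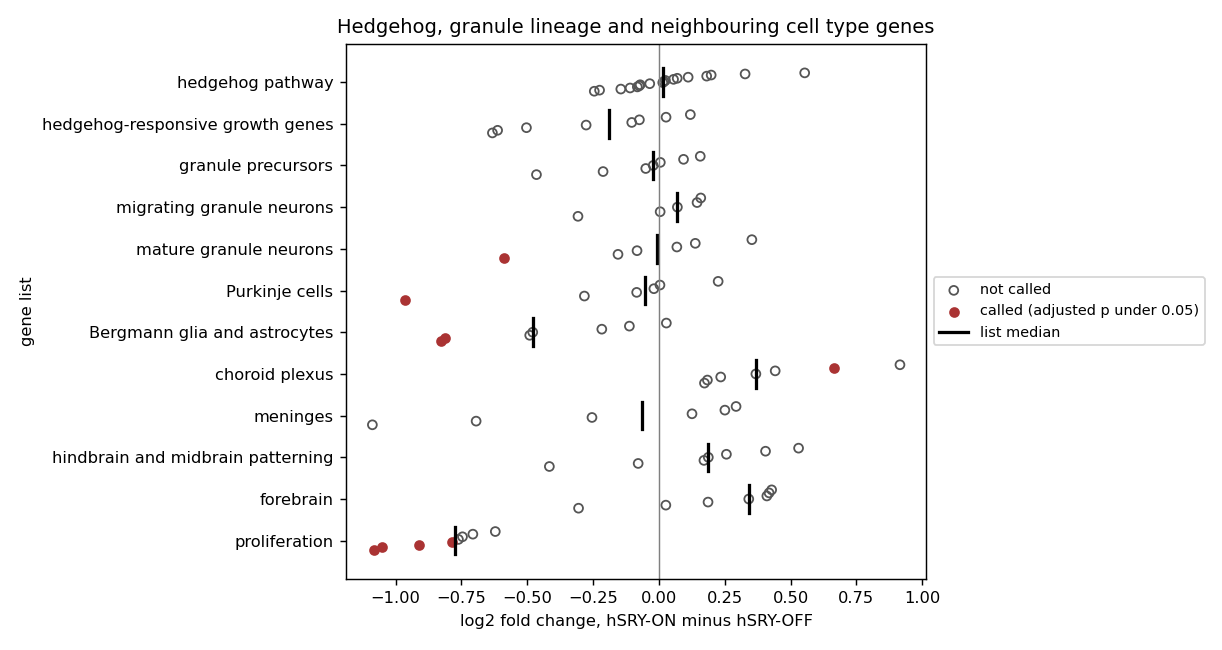
Log2 fold change, hSRY-ON minus hSRY-OFF, of every tested gene in 12 lists, with 1 probe per gene; filled points passed the limma adjusted threshold, open points did not, and the vertical bars are list medians. The hedgehog pathway and granule precursor lists have medians of 0.02 and -0.02 and no filled point, while all 8 proliferation genes lie below 0.

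Gli1 was not tested, so the probes most like a listed gene in pattern were sought for Ptch1. The 3 with the highest Pearson correlation over the 6 arrays among all tested probes were Gm1568 (r = 0.981), Cachd1 (r = 0.981) and Txn1 (r = 0.976). These are the top of 14215 correlations over 6 arrays, and the Ptch1 signal they follow was not detected on 3 of the 6.

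In the RefSeq promoter windows of GRCm38.p6, from 250 bases before to 50 after each gene's start, the GLI binding motif GACCACCCA was searched on both strands. It was found in 83 of 32851 windows, or 0.253%, and in none of the 9 windows of the 8 listed genes that had one. The promoters of Gli1 and Shh were not analysed here. The absence of a match says only that these letters are not in these windows.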

How the data were processed

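Whole brain RNA of 3 hSRY-OFF and 3 hSRY-ON pups was measured on Illumina MouseRef-8 v2.0 arrays, described by the study as biological triplicates. The table deposited by the authors held, per probe and array, a bead summary intensity before normalization and a detection p-value, and all of its value columns were mapped to samples by name. Steps of the detection p-value corresponded to 798 negative control beads per array. The submitters' notes name limma and the methods name TCC, which was not used here because it models counts. In R 4.3.3 with limma 3.58.1, intensities were corrected by normexp from the detection p-values with an offset of 16, transformed to log2 and quantile normalized. Probes detected (p under 0.05) on at least 3 of 6 arrays were fitted with lmFit and eBayes, with Benjamini-Hochberg adjustment over 14215 probes and 95% intervals from the same fit. No array batch was given in the sources used here. The number of arrays limits the precision.

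The listed genes and all gene lists were chosen with earlier results of these data known. All probes of the 10 listed genes are named. From every other list each called gene was named up to 4, or where fewer than 2 were called, the genes with the lowest p up to 2. For gene lists 1 probe per symbol was used, that with the highest mean signal. Sufu, Gli3, Mapt, Aldh1a2, Slc6a13 and markers that were not tested were named after their values were seen, and some genes of the lists are not reported here. The script for the fit was tested on simulated data. Figures used matplotlib 3.10.9.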

Additional observations from a re-analysis of the deposited data

How the results depend on the processing

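No listed probe was called under any alternative, and 6 of the listed probes were detected on all arrays throughout. In 136 refits of the 8 tested probes 128 kept their sign, and the lowest adjusted p was 0.191. The ILMN_2741614 probe of Smo, lower in hSRY-ON in all of its 17 refits, had an unadjusted p under 0.05 in 4. Leaving out 1 array gave differences from -0.318 to 0.0538 for Ptch1 (3 of 6 fits, as it failed the detection filter in the others), -0.278 to -0.0194 and -0.656 to -0.133 for the Shh probes, -0.212 to 0.0734 for ILMN_2741611 and -0.0411 to 0.0571 for ILMN_2986978 of Smo, -0.322 to -0.160 for ILMN_2741614 of Smo, 0.000785 to 0.211 for Barhl1 and -0.0417 to 0.288 for Zic1, and array weights turned ILMN_2986978 to -0.0087. The calls over all probes, 308, became 1317 without background correction, 860 with normexp on the signals and an offset of 50, 679 with an offset of 50 alone, 123 without the detection filter, 705 with detection p under 0.01 on all arrays, 1447 with a trended robust prior, 480 with array weights, and 0 to 417 without 1 array. The 9 called genes of the other lists became 25, 21, 17, 4, 17 and 27 under the first 6 of these and 0 to 17 without 1 array, the highest without hSRY-ON array 3. The hedgehog pathway list gained 1 call without hSRY-ON array 3, the granule precursor list 1 in 3 settings, and the growth gene list up to 3. Median scaling, cyclic loess, 1 probe per symbol and quantile normalization on the linear scale, chosen after seeing the data, left both counts within 1.5 times. Where no probe was called without 1 array, 2433 to 2690 had an unadjusted limma p under 0.05. Replicate numbers occur in both groups, but same-numbered arrays deviated together with r of only 0.040, 0.029 and 0.025, so they were not taken as pairs. With the replicate number as a block 0 probes, 0 list genes and 0 listed probes were called by limma, with 2906 probes at an unadjusted p under 0.05, and each array correlated best with its own number, a hint from the data and not from the design. Over all alternatives the median log2 difference ranged from -0.0393 to 0.0423 for the hedgehog pathway list, -0.276 to -0.0938 for growth genes, -0.0991 to 0.0432 for granule precursors, 0.0367 to 0.122 for migrating and -0.0742 to 0.0750 for mature granule neurons, -0.238 to 0.0609 for Purkinje cells, -0.594 to -0.249 for glia, 0.270 to 0.447 for choroid plexus, -0.0893 to -0.0309 for meninges, 0.0855 to 0.279 for hindbrain and midbrain, 0.165 to 0.358 for forebrain and -0.954 to -0.561 for proliferation. Signal over background limited Gli1, Mycn, Atoh1, Hhip, Ptch1 and the second Shh probe. Signals were also low for Kl, Tulp3, Sufu and the second Btrc probe. Without background correction the differences were -0.0367 for Ptch1 and -0.0961 and -0.123 for the Shh probes.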
